A study of Mus musculus with 8 samples.

Results

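CD8+ T cells were compared between MC38 tumors and lymph nodes (LN) of mice that had received no irradiation (IR). The comparison takes 4 of the 8 arrays of the series, the 2 arrays of MC38 tumor without IR and the 2 of LN without IR, and covers all 18193 genes that have a probe set of their own on the array. All groups share the same background. The mice were female C57BL/6, 6 to 8 weeks old, and carried a subcutaneous flank tumor of MC38, a mouse colon adenocarcinoma line, and the cells of 4 mice were pooled for each array. Cells were enriched by CD8 positive selection and sorted as CD3+CD8+CD44+ cells with the phenotype of T cells that have met antigen and have left the naive pool. Inguinal and axillary nodes were combined, whether or not they drained the tumor, and since their donors also bore tumors no array here comes from a mouse without one. Tumors were dissociated with the enzymes Liberase TM and DNase I and spun in Percoll, whereas LN were pressed through a mesh, so tissue and dissociation cannot be told apart. The other 4 arrays come from mice given 5 Gy of whole body IR 5 h before the cells were taken, and serve here as another tumor and LN pair. The series describes 2 independent experiments of 4 pools each, but the labels do not say that a replicate number is an experiment.

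T cells that are activated in LN lose the receptors that keep naive and central memory cells circulating through lymphoid tissue, and gain chemokine receptors, cytotoxic granules and effector cytokines. Where antigen persists, as in tumors, CD8+ T cells also carry inhibitory receptors such as PD-1 and TIM-3, receptors shared with natural killer (NK) cells, and the ectoenzyme CD39. Solid tumors are often short of oxygen and glucose, and a cell that senses low oxygen through the transcription factor HIF-1 switches on glucose uptake, glycolysis and collagen-modifying enzymes.

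Values are log2 intensities as deposited, and those of single arrays are given as LN replicate 1 and 2 and then tumor replicate 1 and 2. A gene is said to have risen or fallen when its adjusted p by limma lay under 0.1 and tumor and LN differed by at least 1 on the log2 scale, and otherwise it did not pass. Of the 18193 genes, 819 (4.5%) rose and 189 (1.04%) fell in tumor T cells. The rises were larger, with a median of 1.80 against −1.47 for the falls, and 155 rises but 13 falls reached a log2 fold change of 3 in size. The median over all genes was −0.09, and 37.2% were higher and 62.8% lower in value. The level of 193 of the genes that rose started under 5.44, the lower quartile of the 4 arrays, and 19 of those that fell ended under it. A level there is not shown to exceed background, so such a fold change has no exact size. In sorted pools, fewer cells of a type and less RNA per cell cannot be told apart. Most genes named come from a rule that takes, in each gene list, up to 4 members that passed in each direction and 2 that did not, and any further member named was chosen after its values were seen. The sort checks Cd8a, Cd3e and Cd44 did not pass (0.07, 0.05 and 0.42). LN replicate 1 and 2 differed more from each other than the 2 tumor arrays did. The SD over genes of the difference was 0.42 in LN and 0.27 in tumor, and in the irradiated groups, which enter the same fit, it was 0.57 in LN and 0.27 in tumor. Of 156 named genes that passed, 67 did not pass without tumor no IR replicate 2 and 45 did not without LN no IR replicate 2.

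**Figure D1:**
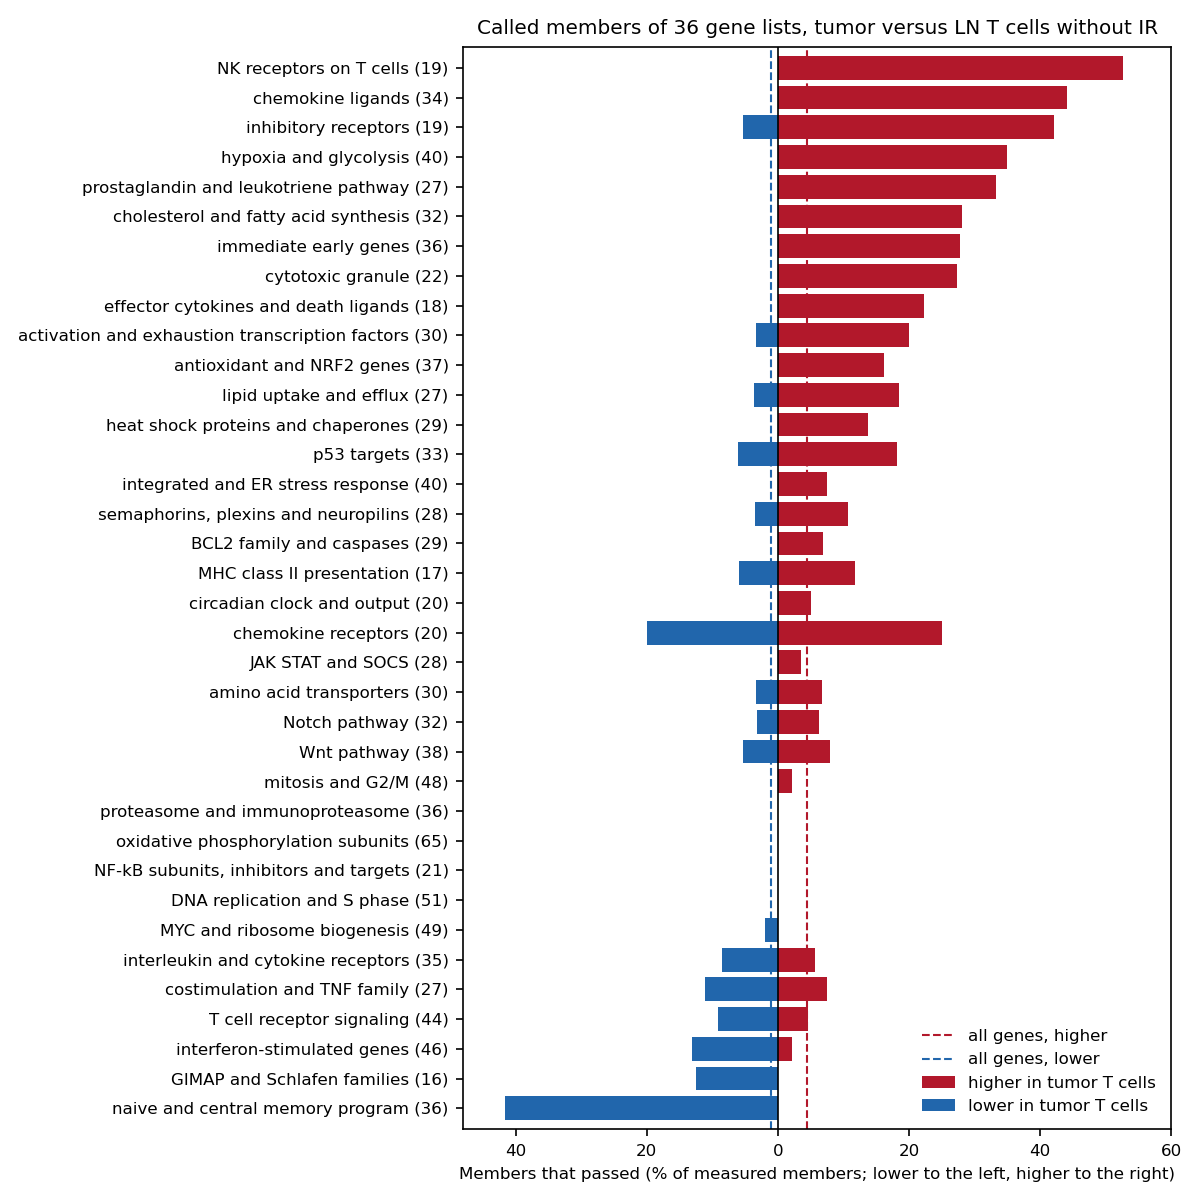
Share of the measured members of 36 gene lists that rose (red bars, to the right) or fell (blue bars, to the left) in tumor over LN T cells without IR, in percent, with the number measured in brackets. Dashed lines mark the shares over all genes, 4.5% higher and 1.04% lower. NK receptors on T cells lie at the top with 10 of 19 higher, and the naive and central memory program lies at the bottom with 15 of 36 lower.

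The receptors shared with NK cells and those that hold T cells in check were among the 3 of 36 program lists with the largest share of rises, with marker lists of other cell types left aside. Of 19 measured inhibitory receptors 8 rose, 1 fell and 10 did not pass, with a median of 1.19. Of 19 NK receptors 10 rose, 0 fell and 9 did not pass, with a median of 1.80. Cd244a, which encodes the SLAM family receptor 2B4, read 8.24 and 7.26 in LN and 12.08 and 11.76 in tumor T cells (log2 fold change 4.17 ± 0.33 SE, adjusted p = 0.000854). Entpd1, the ectonucleotidase CD39 that degrades extracellular ATP, read 6.96 and 6.70, then 10.10 and 10.15 (3.29 ± 0.23, adjusted p = 0.000521). For both genes the tumor arrays lay close to each other and far above both LN arrays. Pdcd1, the gene of PD-1, read 9.01 and 7.96 in LN and 11.39 and 11.29 in tumor (2.86 ± 0.66, adjusted p = 0.056). Havcr2, which encodes TIM-3, rose from 8.13 and 7.36 to 10.05 and 10.31 (2.43, adjusted p = 0.0169). Lag3, a receptor of MHC class II, rose by 1.27 (adjusted p = 0.0321), and Cd200r1, the receptor of CD200, by 1.83 (adjusted p = 0.0167). Cd200r4, a relative of Cd200r1, went from 4.32 and 4.03, under the lower quartile, to 6.91 and 6.58. Ctla4, a checkpoint receptor, was 9.52 and 8.02 in LN and 9.65 and 10.00 in tumor T cells and did not pass (1.06, adjusted p = 0.347).

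The receptor that fell was Btla, which binds the TNF receptor family member HVEM. It read 11.21 and 10.83 in LN and 7.62 and 7.78 in tumor T cells (−3.32 ± 0.19, adjusted p = 0.000353), so its direction was opposite to that of the 8 others. The count of 8 was 5 without LN no IR replicate 2, 5 without tumor no IR replicate 1 and 4 without tumor no IR replicate 2.

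Among NK receptors, Klrk1, which encodes the activating receptor NKG2D, read 9.87 and 9.72 in LN and 11.55 and 11.63 in tumor T cells (1.80 ± 0.14, adjusted p = 0.000914). Klrc1, the inhibitory receptor NKG2A, rose from 10.24 and 10.03 to 12.15 and 12.02 (1.95, adjusted p = 0.00174), and Klrd1, the CD94 chain that pairs with it, from 10.71 and 11.28 to 12.39 and 12.19 (1.29, adjusted p = 0.0474). Klrc2, the NKG2C chain, rose by 2.32 and Klre1, another lectin-like receptor, by 2.35. The activating and the inhibitory chains thus rose together. Klrb1a read 5.29 and 5.11 in LN, under the lower quartile, and 8.21 and 8.36 in tumor T cells, and its relative Klrb1b rose by 2.21. Klra5, of the Ly49 family, read 4.36 and 5.53 in LN, with a mean under the lower quartile, and 10.26 and 10.90 in tumor T cells, and Klra2 of the same family 3.10 and 3.41, then 5.79 and 7.12. Ly49 genes are near-identical to each other, so which of them these probes read is uncertain. Fcer1g, the signaling chain of several of these receptors and of Fc receptors on macrophages, rose by 3.23. It is also on the macrophage list, whose part in the result was not tested. Klre1 is also on the list of NK cell markers, and Xcl1 of that list was higher in value without passing (0.90, adjusted p = 0.265). Eomes and Gzma, markers of the same list that CD8+ T cells share, did not rise. Eomes fell by 1.89 and Gzma stood at 11.19 and 11.69 in LN and 9.63 and 10.60 in tumor T cells. Of 8 measured markers on the NK cell list 1 rose and 1 fell, and in value 3 were higher and 5 lower. In LN 3 of the 8 lay under the lower quartile, and in tumor 3 did. The summed level of the list was 58.8 and 63.2 in LN and 58.7 and 61.0 in tumor T cells. Between the irradiated groups 3 of the 8 rose and 1 fell. Klrb1c and Klra4 of the list had no probe set of their own. The part of NK cells in the rises of NK receptors was not tested.

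**Figure D2:**
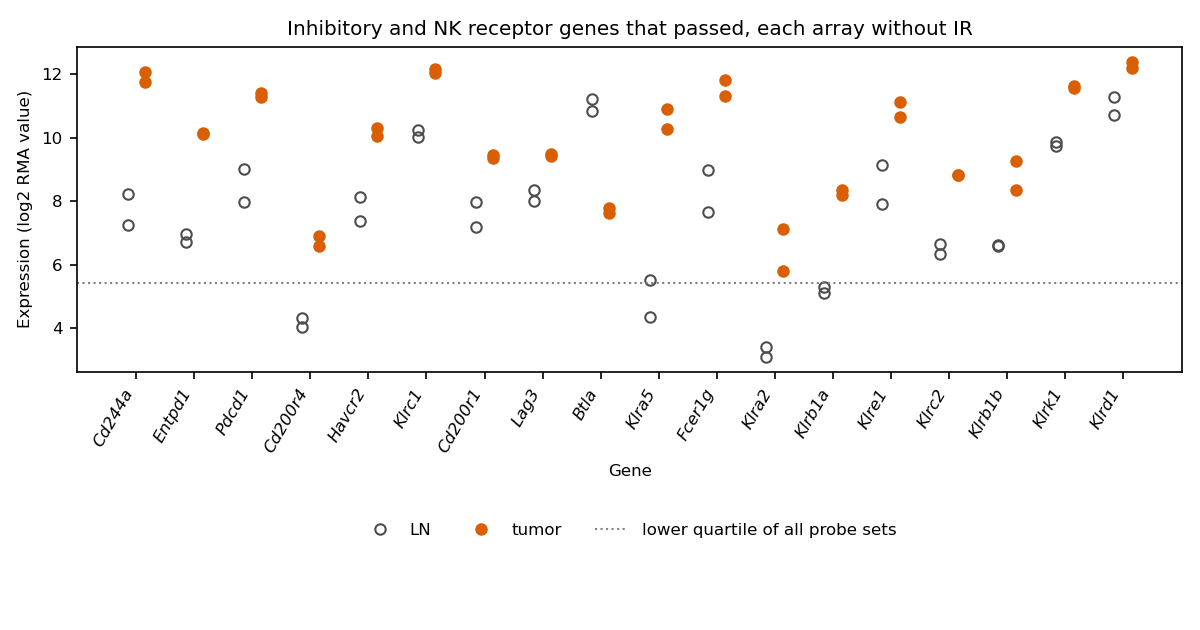
Log2 RMA value of the inhibitory receptor genes (left) and NK receptor genes (right) that passed, on each array without IR. Open circles are the 2 LN arrays, filled circles the 2 tumor arrays, and the dotted line is the lower quartile of all probe sets, 5.44. Both tumor arrays lie above both LN arrays for each gene but Btla, and the LN values of Cd200r4, Klra2 and Klrb1a lie under the line.

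Effector molecules rose in part. Of 22 cytotoxic granule genes 6 rose and 0 fell (median 0.57), and of 18 effector cytokines and death ligands 4 rose and 0 fell (median 0.10). Gzmb, granzyme B, read 10.79 and 10.57 in LN and 12.27 and 12.78 in tumor T cells (1.84 ± 0.43, adjusted p = 0.0563). Serpinb9, which protects the killer cell from granzyme B, rose from 9.76 and 10.02 to 11.18 and 11.21 (1.31, adjusted p = 0.0305). Gzmc and Gzmf read 6.57 and 6.08 and 6.25 and 5.84 in LN, and 10.05 and 10.83 and 11.67 and 12.21 in tumor T cells. They are near-identical paralogs of Gzmd and Gzme, so their separate levels are uncertain. Gzmm, a granzyme of innate-like lymphocytes, read 8.10 and 9.99 in LN and 7.27 and 7.15 in tumor T cells and did not pass (−1.84, adjusted p = 0.144), and neither did Gzma (−1.33, adjusted p = 0.5). Prf1, which encodes the pore protein perforin, read 9.0 and 10.80 in LN and 11.51 and 11.64 in tumor T cells and did not pass (1.67, adjusted p = 0.155). The 6 granule genes were 3 without tumor no IR replicate 2.

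Csf1, the growth factor of macrophages, read 8.69 and 7.46 in LN and 11.31 and 11.39 in tumor T cells (3.27 ± 0.47, adjusted p = 0.00941). Csf2, which encodes GM-CSF, rose from 6.80 and 6.36 to 8.70 and 8.97 (2.25, adjusted p = 0.00176). Among death ligands Fasl rose by 2.59 and Tnfsf10, which encodes TRAIL, by 1.06. Ifng, the gene of interferon-γ, read 11.03 and 8.68 in LN and 12.47 and 12.41 in tumor T cells. Both tumor arrays were above both LN arrays, but the LN arrays differed widely from each other and the gene did not pass (2.59 ± 0.90, adjusted p = 0.191). Tnf did not pass either (0.22, adjusted p = 0.707). The 4 genes were 2 without LN no IR replicate 2.

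Costimulatory receptors of the TNF family and the SLAM family moved in both directions. Of 27 measured 2 rose (7.4% against 4.5% over all genes) and 3 fell (11.1% against 1.04%). Their median of −0.09 turned to 0.14 when arrays were scaled to T cell identity genes. Tnfrsf9, which encodes 4-1BB, read 9.29 and 9.48 in LN and 11.80 and 11.85 in tumor T cells (2.44 ± 0.31, adjusted p = 0.00548). Tnfrsf18, which encodes GITR, rose by 1.19 (adjusted p = 0.00937). Slamf6, a receptor of stem-like CD8+ T cells, fell from 12.58 and 12.47 to 9.21 and 9.80 (−3.02 ± 0.27, adjusted p = 0.00132). Tnfsf8, the ligand of CD30, fell by 1.20 and the death receptor gene Fas fell by 1.35.

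Transcription factors of activation and exhaustion were mostly higher in value (24 of 30), and 6 rose and 1 fell (median 0.68). Zeb2, a repressor active in terminal effector cells, read 6.56 and 6.13 in LN and 9.20 and 9.63 in tumor T cells (3.07 ± 0.39, adjusted p = 0.00582). Nfil3, a bZIP repressor that also belongs to the circadian clock list, rose by 2.41, Rbpj, the DNA-binding partner of Notch, by 2.08, Litaf by 1.74, Irf8 by 1.64 and the orphan nuclear receptor Nr4a2 by 1.44. Eomes, a T-box factor of memory cells, fell from 9.93 and 10.60 to 8.21 and 8.53 (−1.89, adjusted p = 0.00759). Bhlhe40 read 11.45 and 9.38 in LN and 12.41 and 12.37 in tumor T cells and did not pass (1.97, adjusted p = 0.269). The count of 6 is unsteady, being 12 without either irradiated LN array, 11 by a robust fit or with array weights, 3 without LN no IR replicate 2 and 1 without either tumor no IR array.

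The program of naive and central memory cells was lower in tumor T cells. Of 36 measured genes 15 fell, 0 rose and 21 did not pass, with a median of −0.89, and both tumor arrays lay below both LN arrays for 26 of them (72.2% against 35.2% over all genes). Cmah, which hydroxylates sialic acid, read 10.10 and 10.83 in LN and 6.54 and 6.80 in tumor T cells (−3.79 ± 0.29, adjusted p = 0.000759). Lef1, the Wnt pathway factor of naive and stem-like T cells, fell from 9.57 and 10.64 to 6.82 and 7.64 (−2.87, adjusted p = 0.00905), and Dapl1 from 11.93 and 12.52 to 9.50 and 9.24 (−2.86, adjusted p = 0.00216). Foxo1, the factor that keeps Il7r on, fell from 10.27 and 10.71 to 8.71 and 9.22 (−1.52, adjusted p = 0.0149), and Il7r, the receptor of interleukin-7, from 12.38 and 12.69 to 10.85 and 11.29 (−1.47, adjusted p = 0.0135). The list also lost transcripts with other roles. St8sia1, which makes the ganglioside GD3, fell by 2.63, Atp1b1, a sodium pump chain, by 2.49, and Ripor2, an inhibitor of RhoA, fell by 2.45. The transcription factor Myb fell by 2.33 and Pik3ip1, an inhibitor of PI3K, fell by 1.98. Satb1, a chromatin organizer, and Foxp1, a factor of quiescence, were lower in value without passing (−0.76, adjusted p = 0.288, and −0.80, adjusted p = 0.0443, short of the fold limit). The 15 falls were 9 without tumor no IR replicate 1.

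Outside the lists, falls among the 12 largest in all genes whose lower level could be measured included Kcna2, a voltage-gated potassium channel, which read 8.80 and 9.15 in LN and 5.66 and 5.74 in tumor T cells (−3.28 ± 0.27, adjusted p = 0.00099). Tdrp fell from 9.05 and 9.94 to 6.50 and 6.67 (−2.91, adjusted p = 0.00192) and Plagl1, an imprinted zinc finger gene, from 10.33 and 8.84 to 6.77 and 6.53 (−2.94, adjusted p = 0.0189). The other 2 probe sets of Plagl1 did not pass, nor did the median of its probe sets (−0.77) or the gene without either tumor no IR array. For all 3, on the probe sets used, the groups did not overlap, as for 35.2% of all genes in that direction. The 3 were chosen for large falls that passed, so this adds no support. Among the 12 largest rises were genes of alternatively activated macrophages and of stroma. Arg1, the arginase of such macrophages, read 6.46 and 6.78 in LN and 11.68 and 12.55 in tumor T cells (5.50 ± 0.67, adjusted p = 0.00502). Cavin1, a coat protein of caveolae, rose from 5.90 and 5.81 to 11.50 and 11.05 (5.42), F13a1, a chain of clotting factor XIII, by 5.22 and Lrp1, an endocytic receptor, by 4.76.

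Chemokine receptors split in 2 directions. Of 20 measured, 5 rose and 4 fell, and their median of −0.16 turned to 0.07 when arrays were scaled to T cell identity genes. Cx3cr1, the fractalkine receptor, read 8.93 and 8.20 in LN and 11.27 and 11.43 in tumor T cells (2.79 ± 0.34, adjusted p = 0.00528). Cxcr6, the receptor of CXCL16, rose from 11.33 and 11.29 to 12.40 and 12.35 (1.07, adjusted p = 0.0352). Its ligand Cxcl16 rose as well, from 9.59 and 9.57 to 11.52 and 12.22 (2.29, adjusted p = 0.0518). Ccrl2, a receptor that presents chemerin without signaling, rose by 2.93, Ackr3, a scavenger of CXCL12, went from 3.62 and 3.48, under the lower quartile, to 7.81 and 7.69, and Ccr1, a receptor of CCL3 and related ligands, from 5.41 and 5.49 to 9.33 and 10.59. On the same arrays 19 of 24 macrophage and monocyte markers rose, and the part of macrophage RNA in these receptor rises was not tested. The receptors that fell guide cells to lymphoid tissue, skin or inflamed sites. Ccr7, the LN homing receptor, read 11.45 and 12.01 in LN and 9.80 and 9.99 in tumor T cells (−1.83 ± 0.32, adjusted p = 0.019). Cxcr3, the receptor of CXCL9 and CXCL10, fell from 12.16 and 12.35 to 10.54 and 10.76 (−1.61, adjusted p = 0.00242), Ccr4, a receptor of skin homing, fell by 2.89 and Cxcr5, the follicle homing receptor, fell by 2.03. The 4 falls were 1 without either tumor no IR array.

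Chemokine ligands rose and did not fall. Of 34 measured 15 rose and 19 did not pass (median 0.69). Ccl3 and Ccl4, which activated CD8+ T cells secrete, read 8.83 and 7.76 and 8.48 and 8.16 in LN, and 11.58 and 11.55 and 10.16 and 10.18 in tumor T cells (differences of 3.27 and 1.85, adjusted p = 0.00412 and 0.00848). Ccl1, a ligand of CCR8, rose from 8.01 and 6.19 to 10.49 and 10.84 (3.56, adjusted p = 0.0125). Xcl1, another product of CD8+ T cells, did not pass (0.90, adjusted p = 0.265). Ccl9 and Ccl6, which macrophages make, rose by 4.19 and 4.09, and Cxcl2, a ligand that attracts neutrophils, went from 5.33 and 3.85, under the lower quartile, to 9.50 and 10.27. Ccl9 was 11.07 and 11.93 without IR and 9.97 and 11.60 with it, and the mean of 24 macrophage and monocyte markers was 10.21, 11.02, 9.0 and 10.37 on the same arrays, whereas Ccl1 was 10.49, 10.84, 8.76 and 8.96. The part of macrophage RNA in these rises was not tested. The 15 rises were 9 without tumor no IR replicate 2.

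Few transcripts of T cell receptor signaling passed, and falls but not rises exceeded their share over all genes. Of 44 measured, 2 rose (4.5%, against 4.5% over all genes), 4 fell (9.1% against 1.04%) and 38 did not pass. The median of −0.16 turned to 0.07 with scaling to T cell identity genes. Dgka, the kinase that removes diacylglycerol, read 11.48 and 11.63 in LN and 10.11 and 10.06 in tumor T cells (−1.47 ± 0.14, adjusted p = 0.00201). Trat1, an adaptor of the receptor complex, fell from 9.19 and 8.38 to 6.25 and 6.48 (−2.42, adjusted p = 0.00961), and Tespa1 and Pag1, adaptors of the same pathway, fell by 1.31 and 1.23. Ubash3b, a phosphatase that restrains ZAP-70, rose from 9.43 and 9.36 to 10.82 and 10.62 (1.32, adjusted p = 0.0309) and the adaptor Sh2d2a by 1.16. Among 35 cytokine receptors 2 rose (5.7% against 4.5%) and 3 fell (8.6% against 1.04%), with a median of 0.30. With arrays scaled to T cell identity genes 8 rose and 3 fell. Rises numbered 5 without either irradiated LN array and 1 without tumor no IR replicate 2, and falls 1 without tumor no IR replicate 1. Il12rb2, the signaling chain of the interleukin-12 receptor, read 8.48 and 8.91 in LN and 10.45 and 10.39 in tumor T cells (1.72 ± 0.18, adjusted p = 0.00284). The other rise, Csf1r, is on the macrophage list. Il6st, the gp130 chain, fell by 1.62 and Tgfbr3, a coreceptor of TGFβ, by 1.37. Of 28 JAK, STAT and SOCS genes 1 rose (3.6% against 4.5%). It was Cish, an inhibitor induced by STAT5, from 9.95 and 8.63 to 11.89 and 11.92 (2.62, adjusted p = 0.062).

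Immediate early genes were higher in tumor T cells. Of 36 measured 10 rose and 0 fell, with a median of 0.82, and both tumor arrays lay above both LN arrays for 27 of them (75% against 21.3% over all genes). Atf3, a stress-induced repressor, read 6.90 and 6.40 in LN and 9.53 and 10.03 in tumor T cells (3.13 ± 0.33, adjusted p = 0.00269). Fosb read 9.54 and 9.48, then 11.62 and 11.60 (2.10 ± 0.28, adjusted p = 0.00669), and Fosl2 rose by 2.33 and the survival gene Ier3 by 2.14. The separation was smaller between the irradiated groups, where 6 of 36 rose and the median was 0.22. The mean of all 36 was 9.91 and 9.51 in LN, 10.6 and 10.7 in tumor, 10.6 and 10.3 in irradiated LN, and 10.8 and 10.9 in irradiated tumor T cells. That of the 10 genes was 9.32 and 8.80, 10.8 and 11.0, 10.4 and 10.3, and 11.1 and 11.4 in the same order. The 10 were chosen by the pair without IR, so their smaller gap with IR is in part fixed by that choice. For no gene did the tumor to LN difference change between the pairs at an adjusted p under 0.1 (limma, 0 of 18193 genes, and 1024 at an unadjusted p under 0.05). The count of 10 was 4 without tumor no IR replicate 2 and 17 when scaled to T cell identity genes. Of 21 NF-kB subunits, inhibitors and targets 0 passed (limma, with 1 by a robust fit and 1 at an unadjusted p under 0.05), with Tnfaip3, the A20 inhibitor, at 1.05 (adjusted p = 0.286).

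Hypoxia and glycolysis genes were higher in value in tumor T cells for 37 of 40 measured members. Of the 40, 14 rose, 0 fell and 26 did not pass, with a median of 0.78, and the groups were apart in that direction for 33 (82.5% against 21.3%). Bnip3, a mitophagy receptor that HIF-1 induces, read 7.98 and 8.05 in LN and 11.39 and 11.77 in tumor T cells (3.56 ± 0.25, adjusted p = 0.000625). Aldoc, an aldolase of glycolysis, rose from 6.34 and 5.54 to 9.06 and 9.45 (3.31, adjusted p = 0.00299). Slc16a3, the lactate exporter MCT4, read 7.37 and 7.44 in LN and 9.20 and 9.84 in tumor T cells (2.11 ± 0.26, adjusted p = 0.005). In these 3 genes, chosen among those that rose, the groups did not overlap. P4ha1, which hydroxylates prolines of collagen, rose by 1.54 (adjusted p = 0.00987), its relative P4ha2 from 5.00 and 5.01, under the lower quartile, to 6.07 and 6.10, the oxidase Ero1a by 1.13 and the ankyrin repeat gene Ankrd37 by 1.14. The glucose transporters Slc2a1 and Slc2a3 rose by 1.17 and 1.21. The glycolytic enzymes Ldha (0.24, adjusted p = 0.539) and Pgk1 (0.56, adjusted p = 0.176) did not pass. Hif1a itself, a transcript that low oxygen regulates mainly through its protein, was higher by 0.71 (adjusted p = 0.0304), under the fold limit. With IR 13 of the 40 rose. The mean of the 14 genes was 8.16 and 8.13 in LN and 9.88 and 10.2 in tumor T cells, and 9.88 and 10.1 in irradiated tumor T cells. The 14 were 5 without tumor no IR replicate 2.

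HIF-1 binds the letters ACGTG or GCGTG, and the 250 bases before the start of each gene in RefSeq (GRCm38.p6) were searched for these 2 words on both strands. The first word overlaps the E-box CACGTG, which other factors bind. At least 1 match lay in 38.6% of all 32851 promoters, in 77.2% of the 57 promoters of the hypoxia members, of which 38 of 40 genes were matched, and in 87.5% of the 16 promoters of members that rose. The list was drawn up as hypoxia genes, so an excess of the words over all promoters is in part built in and says nothing about these arrays. The members' promoters were also richer in G and C, with a median of 61.6% against 52.4%, and the part of base composition in the shares was not tested. The 120 bases before the start are printed for 4 members that rose, to show the words in place, in the direction of the gene with matches in capitals.
Bnip3 (chr7:138909507-138909626, minus strand): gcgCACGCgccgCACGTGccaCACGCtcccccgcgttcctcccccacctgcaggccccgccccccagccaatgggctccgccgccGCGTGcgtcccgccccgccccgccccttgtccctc
Slc16a3 (chr11:120948947-120949066, plus strand): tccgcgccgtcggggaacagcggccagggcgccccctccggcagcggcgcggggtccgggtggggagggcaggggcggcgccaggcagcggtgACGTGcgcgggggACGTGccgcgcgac
P4ha1 (chr10:59323176-59323295, plus strand): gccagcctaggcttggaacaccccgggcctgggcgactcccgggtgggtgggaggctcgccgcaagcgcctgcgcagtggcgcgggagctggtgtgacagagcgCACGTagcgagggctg
Ankrd37 (chr8:45999851-45999970, minus strand): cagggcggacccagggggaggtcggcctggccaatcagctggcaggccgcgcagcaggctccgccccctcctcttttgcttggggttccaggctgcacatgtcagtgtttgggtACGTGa
Bnip3 holds 5 matches in this stretch, Slc16a3 holds 2, and P4ha1 and Ankrd37 hold 1 each. In Bnip3, CACGTG reads the same on both strands and counts as 2 of the 5. A match describes letters in the genome and is not a measurement of binding in these cells.

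The subunits of oxidative phosphorylation did not move with the hypoxia genes. Of 65 measured 0 passed (limma, with 0 by a robust fit and 1 at an unadjusted p under 0.05), and their differences ran from −0.62 (Ndufa4) to 0.32, with a median of −0.09 that equals that over all genes and turned to 0.14 with scaling to T cell identity genes.

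Some genes of sterol synthesis rose. Of 32 genes of cholesterol and fatty acid synthesis 9 rose and 0 fell (median 0.41), and 27 were higher in value. Scd1, the desaturase that makes oleate, read 4.90 and 7.14 in LN and 8.70 and 8.48 in tumor T cells (2.57 ± 0.61, adjusted p = 0.063). Sqle, an early enzyme of the sterol branch, read 9.14 and 8.06, then 10.20 and 10.17 (1.58 ± 0.42, adjusted p = 0.0917). Fads1, another desaturase, rose from 8.19 and 8.13 to 9.37 and 9.67 (1.37, adjusted p = 0.0108), but its other probe set did not pass (−0.48), and it did not pass by the median of both (0.44) or without tumor no IR replicate 2. Stard4, a carrier of cholesterol, rose by 1.24 (adjusted p = 0.00954). Further genes of sterol synthesis, Lss, Cyp51, Msmo1, Fdps and Hsd17b7, rose by 1.03 to 1.16. Another probe set did not pass for Cyp51 (0.56), Msmo1 (0.61), Fdps (0.01) and Hsd17b7 (−0.02). By the median of their probe sets Cyp51, Msmo1 and Fdps did not pass. Abcg1, which exports cholesterol, fell from 10.17 and 10.73 to 8.48 and 8.91 (−1.75 ± 0.23, adjusted p = 0.00665). Acly, which supplies acetyl-CoA for both pathways, did not pass (0.34, adjusted p = 0.481). On the lipid uptake list 5 of 27 rose, among them Plin2, a coat of lipid droplets, by 2.03, and Apoe and the scavenger receptor Msr1, both also on the macrophage list. Apoe read 7.40 and 7.74 in LN and 11.27 and 11.88 in tumor T cells, and Msr1 5.20 and 5.55, with a mean under the lower quartile, then 9.92 and 10.84. The 9 were 3 without tumor no IR replicate 1 and 1 without tumor no IR replicate 2. The 5 were 3 without tumor no IR replicate 2. Of 30 amino acid transporters 2 rose (6.7% against 4.5% over all genes) and 1 fell (3.3% against 1.04%). The 1 that fell was Slc43a1, a carrier of large neutral amino acids, from 7.41 and 7.43 to 5.64 and 5.60 (−1.80 ± 0.17, adjusted p = 0.0019).

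**Figure D3:**
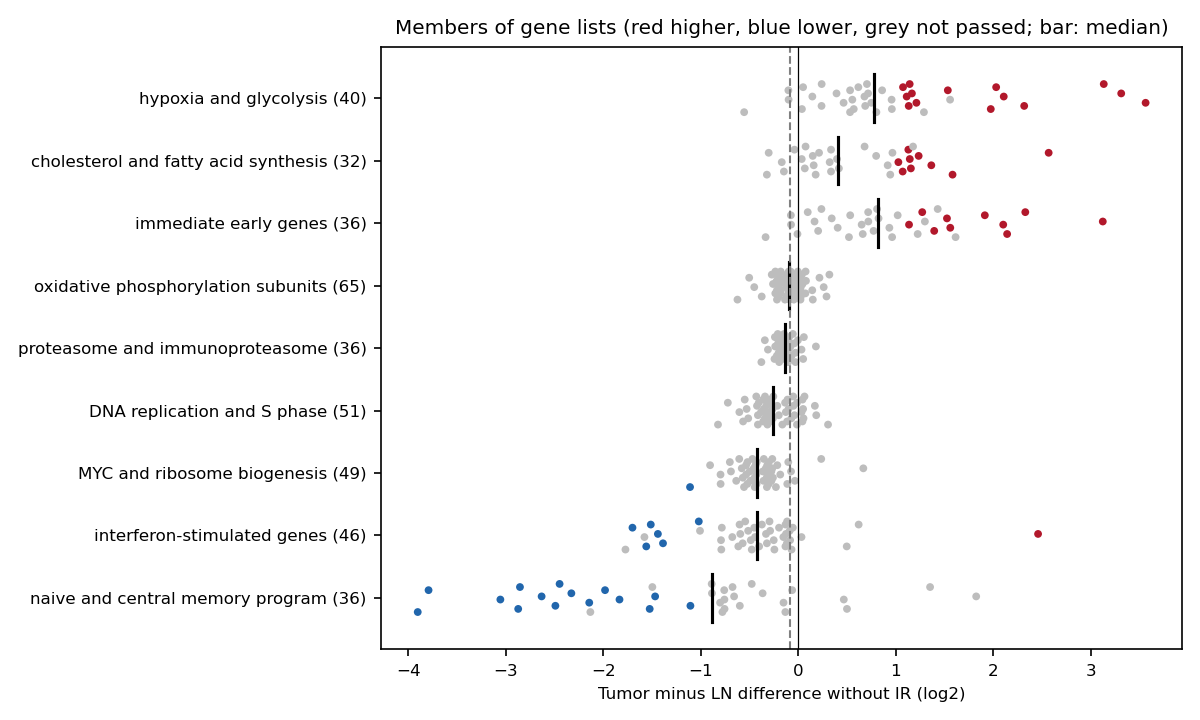
Tumor minus LN difference without IR on the log2 scale for each measured member of 9 gene lists, with the number measured in brackets. Each point is a gene, red if it rose, blue if it fell and grey if it did not pass, black bars are list medians and the dashed line is the median over all genes, −0.09. The hypoxia, cholesterol and immediate early lists lie to the right, oxidative phosphorylation and proteasome at the dashed line, and the MYC, interferon and naive lists to the left.

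Stress genes rose at a minority of the members of each list. Among 29 heat shock proteins and chaperones 4 rose and 0 fell, and the median of −0.10 turned to 0.13 with scaling to T cell identity genes. Hspa1a and Hspa1b, the inducible HSP70 genes, went from 4.35 and 4.04 and from 5.87 and 4.44, with means under the lower quartile, to 7.71 and 8.56 and to 8.89 and 9.26. They are near-identical copies, and their separate levels are uncertain. Hspb8, a small heat shock protein, rose from 5.47 and 6.36 to 9.13 and 8.85 (3.07 ± 0.29, adjusted p = 0.00185), and its partner Bag3 went from 5.64 and 5.06, with a mean under the lower quartile, to 6.92 and 6.79 (adjusted p = 0.098). Hsp90aa1, an HSP90 gene, did not pass (−0.30, adjusted p = 0.335). The count of 4 was 2 without LN no IR replicate 2, 2 without either tumor no IR array, and 2 by the median of a gene's probe sets. Of 37 antioxidant genes 6 rose (16.2% against 4.5% over all genes) and 0 fell, with a median of 0.18. In value 26 were higher and 11 lower. Both tumor arrays lay above both LN arrays for 20 (54.1% against 21.3% over all genes) and below them for 5. Srxn1, which repairs peroxiredoxins, read 7.16 and 6.30 in LN and 10.08 and 9.59 in tumor T cells (3.10 ± 0.35, adjusted p = 0.00349), Hmox1, heme oxygenase, rose by 2.03, Me1, malic enzyme, by 1.74 and the metallothionein Mt1 by 1.49. Of 40 genes of the integrated and ER stress response 3 rose (7.5% against 4.5% over all genes) and 0 fell. Cebpb rose by 2.35, Nupr1 by 1.71 and the kinase Eif2ak3 by 1.14. Both tumor arrays lay above both LN arrays for 14 of the 40 (35% against 21.3%) and below them for 11 (27.5% against 35.2%). The count of 3 was 1 without tumor no IR replicate 2, and another probe set of Eif2ak3 stood at −0.05. The enzyme step that only the tumor cells went through cannot be told apart from tissue in these counts.

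Of 33 p53 targets 6 rose and 2 fell without any IR (median 0.14). Cdkn1a, the gene of p21, read 7.91 and 7.89 in LN and 9.60 and 10.45 in tumor T cells (2.12 ± 0.28, adjusted p = 0.00689). Plk2 rose by 1.76 and the BH3-only gene Pmaip1 by 1.33, whereas Trp53inp1, an autophagy cofactor, fell from 11.16 and 11.46 to 9.55 and 9.92 (−1.58, adjusted p = 0.0087). The 6 were 3 without LN no IR replicate 2, 2 without tumor no IR replicate 1 and 3 without tumor no IR replicate 2.

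Genes of growth and division did not rise with the effector genes. Of 48 genes of mitosis 1 rose, Anln, an organizer of the cleavage furrow, from 7.60 and 6.05 to 8.93 and 8.81 (2.04 ± 0.45, adjusted p = 0.047), and the list median was 0.01. Mki67, the proliferation marker, read 11.89 and 7.92 in LN and 11.33 and 11.50 in tumor T cells. The tumor arrays thus lay between the LN arrays, which differed widely (1.51 ± 1.31, adjusted p = 0.621). The mean of the 48 genes was 9.76 and 8.90 in LN and 9.39 and 9.50 in tumor T cells. Of 51 genes of DNA replication 0 passed (limma, with 0 by a robust fit and 2 at an unadjusted p under 0.05), with a median of −0.26, and both tumor arrays lay below both LN arrays for 25 (49% against 35.2% over all genes). Of 49 genes of MYC and ribosome biogenesis 47 were lower in value and 40 were apart in that direction (81.6% against 35.2%), with a median of −0.43. 1 of them fell, Polr1b, a subunit of RNA polymerase I, from 9.34 and 9.45 to 8.27 and 8.29 (−1.11, adjusted p = 0.0173). Npm1, a nucleolar chaperone, was lower by 0.27 and did not pass (adjusted p = 0.4). The MYC list stayed negative with scaling to T cell identity genes (−0.20), as did DNA replication (−0.03). Between the irradiated groups the median was −0.18 for the MYC list but 0.30 for DNA replication and 0.56 for mitosis.

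Interferon-stimulated genes were lower in value for 42 of 46 measured members, against 62.8% of all genes, and apart in that direction for 24 (52.2% against 35.2%), with a median of −0.42 (−0.19 with scaling to T cell identity genes). Of the 46, 6 fell and 1 rose. Oas3, an enzyme that activates RNase L, read 8.10 and 8.67 in LN and 6.69 and 6.96 in tumor T cells (−1.56 ± 0.28, adjusted p = 0.021). Ifi27l2a read 9.77 and 10.51, then 8.62 and 8.78 (−1.44 ± 0.26, adjusted p = 0.0232). Ifit1 and Ifit3, which bind viral RNA, fell from 8.60 and 9.91 to 7.13 and 7.98 and from 9.28 and 10.66 to 8.36 and 8.55 (adjusted p = 0.0828 and 0.0972). LN replicate 2 was the higher LN array for each of these 4 genes. The mean of the 46 genes was 9.05 and 9.62 in LN and 8.77 and 8.97 in tumor T cells. The mean of 16 B cell and plasma cell markers, 7.02 and 8.09 in LN, had the same order, and its part in the difference was not tested. Irf9, a subunit of the interferon-induced complex ISGF3, fell by 1.02, and Ifi204, a DNA sensor of myeloid cells, rose from 3.61 and 4.33, under the lower quartile, to 6.09 and 6.78. The 6 falls depend on the arrays: they were 15 without LN no IR replicate 1, 1 without LN no IR replicate 2, 0 without either tumor no IR array and 3 without either irradiated tumor array. Between the irradiated groups 15 fell and the median was −0.78.

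The word GAAA, 2 bases of any kind and GAAA again, which the interferon-induced complex ISGF3 and related factors bind, was searched in the same promoters on both strands. It lay in 2.98% of all promoters and in 34.1% of the 41 promoters found for 33 of the 46 members. The list was drawn up as interferon-stimulated genes, so this excess too is in part built in. Of the 6 genes that fell 5 had promoters in the set, and Ifit1, Ifit3 and Oas3 held the word there, as the stretches of the first and the last of these show.
Ifit1 (chr19:34640769-34640888, plus strand): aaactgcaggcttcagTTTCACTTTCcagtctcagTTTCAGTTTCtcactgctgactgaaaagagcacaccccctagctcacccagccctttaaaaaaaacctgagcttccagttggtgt
Oas3 (chr5:120777660-120777779, minus strand): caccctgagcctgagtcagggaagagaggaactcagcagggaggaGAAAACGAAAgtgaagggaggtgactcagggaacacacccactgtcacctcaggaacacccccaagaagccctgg
Capitals mark the matches with the 2 free bases between, 2 in Ifit1 on the opposite strand and 1 in Oas3. No match in Cmpk2 or Irf9 says only that these letters are not in the window searched.

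Proteasome subunits, including the interferon-inducible ones, did not pass (0 of 36 by limma, 0 by a robust fit and 0 at an unadjusted p under 0.05), with a median of −0.13 that turned to 0.10 with scaling to T cell identity genes. On the MHC class II list 2 of 17 rose and 1 fell (median 0.49). Lgmn, the endopeptidase legumain, rose from 6.28 and 6.89 to 9.51 and 10.22 (3.28, adjusted p = 0.0137), Cd80, a ligand of CD28 and CTLA-4, rose by 1.45 (adjusted p = 0.0813), and H2-Oa, a chain of the inhibitor of peptide loading in B cells, fell by 1.47 (adjusted p = 0.00506).

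Genes of prostaglandin and leukotriene metabolism rose in tumor T cells at 9 of 27 members, with 0 falls and a median of 0.29. Hpgd, which inactivates prostaglandins, read 5.74 and 6.09 in LN and 8.64 and 8.53 in tumor T cells (2.67 ± 0.34, adjusted p = 0.00607). Pla2g7, a phospholipase of platelet-activating factor, Pla2g4a, which frees arachidonate, and Ptgs2, the cyclooxygenase COX-2, went from means of 4.79, 4.31 and 4.05, all under the lower quartile, to 9.82, 7.42 and 7.65. Cysltr1, a leukotriene receptor, read 6.45 and 4.01 in LN, with a mean under it too, and 8.93 and 10.11 in tumor T cells (adjusted p = 0.0551). The mean of the 9 genes was 8.21 and 8.71 on the tumor arrays without IR and 7.51 and 8.44 on those with IR. The macrophage markers ordered these 4 arrays in the same way (10.21, 11.02, 9.0 and 10.37), and their part in the result was not tested. The 9 were 5 without either tumor no IR array, and 3 when the dimmer 50% of probe sets was left out.

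Markers of some other cell types also differed between the tumor and LN arrays. Of 24 macrophage and monocyte markers 19 rose and 0 fell, with 6 of the 24 under the lower quartile in LN and 0 in tumor. Their log2 values summed to 156 and 171 on the LN arrays and 245 and 264 on the tumor arrays. The means per gene were 6.52 and 7.14 in LN and 10.21 and 11.02 in tumor T cells. All sums in this paragraph add log2 values, so the ratio of 2 sums is not a fold change. Of 18 fibroblast markers 8 rose, and their sum was 117 and 119 in LN and 148 and 145 in tumor T cells. Of 16 B cell markers 6 fell, with sums of 112 and 129 in LN and 101 and 96.3 in tumor T cells. Jchain, a plasma cell transcript, was 6.32 and 11.28 on the 2 LN arrays and 7.43 and 4.10 on the tumor arrays and did not pass (adjusted p = 0.447). Of 16 epithelial and carcinoma markers 2 rose, Cdh1, E-cadherin, from 7.19 and 7.74 to 10.21 and 10.66 (2.97, adjusted p = 0.00409) and Sox9 by 1.85. The sums of that list were 100 and 102 in LN and 105 and 103 in tumor T cells. Of 12 neutrophil markers 1 rose and of 12 endothelial markers 0 rose and 1 fell. Of 14 dendritic cell markers 1 rose and 1 fell, as did 1 each of 8 CD4 and regulatory T cell markers. Of 12 T cell identity genes 0 passed (limma, 4 at an unadjusted p under 0.05), with sums of 139 and 141 in LN and 137 and 137 in tumor T cells. The 19 macrophage markers were 12 without tumor no IR replicate 2, and the 6 B cell markers 3.

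Over the 2 unirradiated and then the 2 irradiated tumor arrays, the macrophage mean spread widely (10.21, 11.02, 9.0 and 10.37). Arg1 (11.68, 12.55, 9.61 and 11.50) and Apoe (11.27, 11.88, 9.93 and 10.80) were likewise highest on tumor no IR replicate 2 and lowest on tumor IR replicate 1, while the order of the other arrays differed. Apoe is itself a member of the macrophage list. The mean of all 19 measured inhibitory receptors was 9.66, 9.75, 9.53 and 9.65, a narrower spread. That of the 8 that rose was 10.2, 10.1, 9.93 and 9.84. A gene passes more readily when its replicates lie close, so a narrow spread of members that rose is in part fixed by that choice. The mean of the 10 NK receptors that rose, Fcer1g among them, was 9.99, 10.28, 9.73 and 10.11. That of all 19 measured NK receptors was 8.37, 8.78, 8.26 and 8.64. Both NK receptor means spread less than the macrophage mean but ordered the 4 arrays in the same way. Klrk1, 1 of these 10, was 11.55, 11.63, 11.57 and 11.44. The mean of the 9 cholesterol genes was 9.66, 9.66, 9.08 and 9.23. These are values of 4 arrays. The part of other cells in any of these lists, or in any other rise or fall given here, was not tested.

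**Figure D4:**
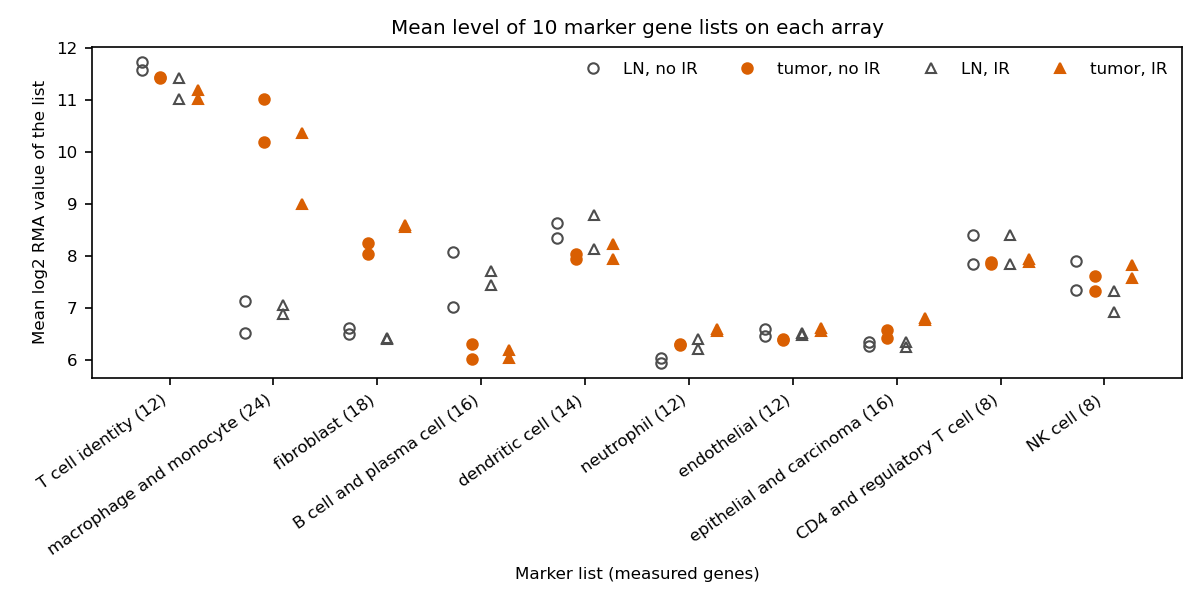
Mean log2 RMA value of 10 marker gene lists on each of the 8 arrays, with the number of measured genes in brackets. Open symbols are LN and filled symbols tumor arrays, circles without IR and triangles with IR, with 2 arrays per group and no error bars. The macrophage and fibroblast lists are higher on all 4 tumor arrays than on any LN array, the B cell list is lower, and the T cell identity list spans 11.0 to 11.7.

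The irradiated tumor and LN arrays gave the same sign for 996 of the 1008 genes that passed without IR, 808 of 819 rises and 188 of 189 falls. Their values are not part of the differences above, but they entered the same fit and its estimate of spread. They are thus not an independent check of the 1008 calls, and the share of equal sign over all genes was not counted. In the irradiated pair 4.8% of all genes rose and 2% fell. Members with nearly equal differences in both pairs included Btla (−3.32 and −3.39 with IR), Slamf6 (−3.02 and −3.10), Bnip3 (3.56 and 3.78), Csf1 (3.27 and 3.53) and Gzmf (5.89 and 5.71). Others were close to 0 with IR, such as Fosl2 (2.33 and 0.23), Cdkn1a (2.12 and 0.23), Nfil3 (2.41 and 0.32), Id3 (−2.14 and −0.31) and Tnfrsf18 (1.19 and −0.13). These 10 genes were chosen for these values, and none of them passed the test of the difference between the pairs.

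**Figure D5:**
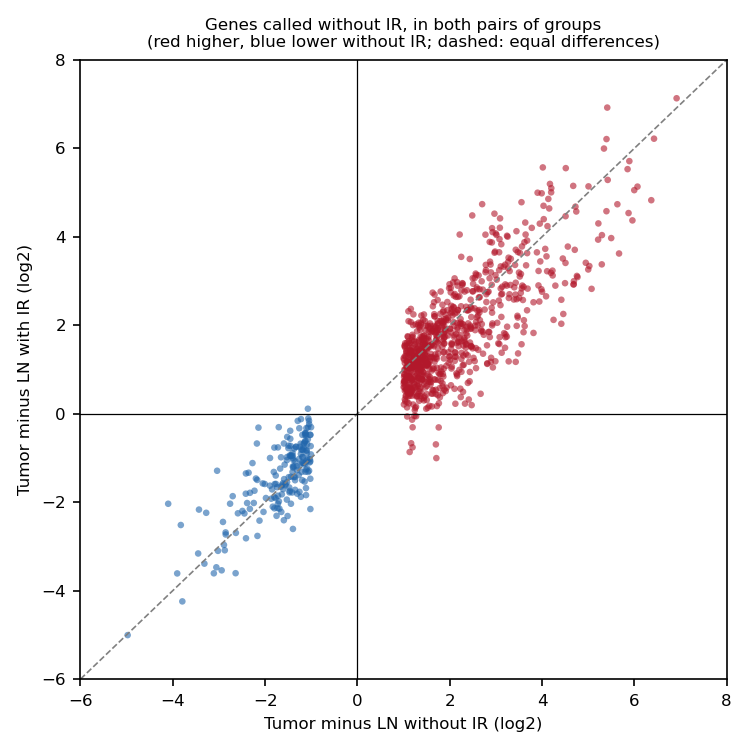
Tumor minus LN difference on the log2 scale without IR (horizontal axis) and with IR (vertical axis) for the 1008 genes that passed without IR, red if they rose and blue if they fell there. Each point is a gene, and the dashed line marks equal differences. 996 genes lie in the quadrants of equal sign.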

How the data were processed

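RNA of sorted CD8+ T cells was measured on 8 Affymetrix mouse arrays in 4 groups of 2. A further marker of the sort is not reported here. The authors processed the scans with RMA, which corrects background, equalises the distributions of the arrays and summarises probe sets, and deposited log2 values for 45101 probe sets (the sources used here do not name the RMA version). These values were taken as they are. RMA assumes equal distributions, so a shift of all genes cannot be seen. Of the probe sets 34945 carry 1 gene symbol, 932 several and 9160 none, and 64 are controls. Each of 18193 genes was read from 1 probe set, the one of highest mean over the 8 arrays among those naming it alone. Entrez IDs tied 34741 of the 34945 to RefSeq (GRCm38.p6), whose promoter table was also used.

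Differences were fitted with limma 3.58.1 (R 4.3.3) by least squares, with a mean for each of the 4 groups, over 35877 annotated probe sets, with Benjamini-Hochberg adjustment. The steps were tested on simulated data. The study fitted robustly and intersected limma with SAM. The robust fit was run as an alternative and SAM was not run here. The comparison, the members and the 46 gene lists (1315 genes, 86 without a probe set of their own) were chosen with earlier results of these data known. The rule for named genes took the 12 largest rises and 12 largest falls whose lower level reached the lower quartile, in each list up to 4 members that passed per direction and the 2 of highest level that did not, the 2 markers of highest level in tumor of each marker list, and the sort checks. It gave 242 genes, of which 134 are named, among them 117 of the 153 that passed. The choice among them was made with their values known, and 37 genes of the rule whose sign turned under an alternative, 0 of which passed, were left unnamed. Other genes were chosen after their values were seen. Of 181 genes named, 98 had several probe sets. Of the 85 of these that passed, 0 had a probe set that passed in the opposite direction and 36 had one that did not pass.

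Alternatives were the robust fit, array weights, a mean-variance trend, fitting the 4 arrays alone, a replicate block, an adjusted p under 0.05, no fold limit, other choices of probe set, leaving out the dimmer 50% of probe sets, scaling to T cell identity genes, cyclic loess, and leaving out each array. With 2 arrays per group, their number limits the precision, and an SE is that of limma's fit. If the pools of a group were not from separate experiments, the p-values measure the spread between pools and not that between experiments.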

Additional observations from a re-analysis of the deposited data

How the results depend on the processing

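Against 1008 genes, 1514 passed with no fold limit (412 lower), 632 with the dimmer 50% of probe sets left out (498 higher), and 859 at an adjusted p under 0.05. Leaving out 1 array gave 540 to 1181 genes, 458 to 942 higher and 82 to 332 lower. The lowest total came without tumor no IR replicate 2 (524 of its 540 genes among the 1008), and lower genes were 90 without tumor no IR replicate 1 and 332 without LN no IR replicate 1. Scaling to T cell identity genes moved the median of all genes by 0.23, from −0.09 to 0.14, and the share of rises from 81.2% to 89.9%. The robust fit called 1231 genes and held all 1008. With a replicate block 1100 genes passed, 880 higher and 220 lower, and 1004 of them were among the 1008. Over genes, the change from replicate 1 to 2 correlated at 0.07 between LN and tumor without IR and at −0.14 with IR, but at 0.43 within LN and within tumor, so the numbers were not shown to pair the tissues. Of 156 named genes that passed, 77 passed in every setting that kept their probe set, and 74 were lost when some array was left out. Of 36 list counts of 1 to 3, 19 were over 1.5 times lower without some array and 12 of them 0. Mki67 and Tnf, which did not pass, ran from −0.48 to 3.50 and from −0.11 to 0.55 when 1 array was left out, and were below 0 without LN no IR replicate 2. The genes named that did not pass are steadier in sign than those of the naming rule as a whole, since 37 that turned are not named. SAM was not run.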

Other observations

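Several families outside the main account moved at few members. Of 38 Wnt pathway genes 3 rose (7.9% against 4.5% over all genes) and 2 fell (5.3% against 1.04%). Their median of −0.06 turned to 0.03 with cyclic loess and to 0.17 with scaling to T cell identity genes. Fzd7, a Wnt receptor, went from 5.01 and 5.28 in LN, under the lower quartile, to 7.23 and 8.20 in tumor T cells, and Fzd4, a related receptor, from 4.17 and 4.57 to 5.89 and 5.60. Tcf7l2, a nuclear effector of the pathway, rose by 1.29 (adjusted p = 0.00567), opposite to its relative Lef1 (−2.87). Of 32 Notch genes 2 rose (6.25% against 4.5%) and 1 fell (3.1% against 1.04%). Their median of −0.03 turned to 0.01 with cyclic loess and to 0.20 with the scaling. The ligand Jag1 rose from 7.33 and 7.32 to 8.48 and 8.79 (1.31, adjusted p = 0.0219).

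Of 28 semaphorins, plexins and neuropilins 3 rose (10.7% against 4.5% over all genes) and 1 fell (3.6% against 1.04%), with a median of 0.11. Sema4c rose from 6.13 and 5.25 to 8.13 and 7.99 (2.37, adjusted p = 0.0512), Plxnb2, a receptor of class 4 semaphorins, by 1.93 (adjusted p = 0.0108), and Sema4f fell from 9.57 and 9.63 to 7.69 and 8.05 (−1.73, adjusted p = 0.0027). Of 16 GIMAP and Schlafen genes 2 fell, Slfn1 by 1.72 (adjusted p = 0.0718) and Slfn2, which keeps T cells quiescent, by 1.02 (adjusted p = 0.0336), with a list median of −0.07 that turned to 0.16 with the scaling. The 2 falls were 0 without LN no IR replicate 2 or either tumor no IR array, and 1 in the fit of the 4 arrays alone. Of 29 BCL2 family and caspase genes 2 rose (6.9% against 4.5% over all genes), Pmaip1 and Casp12, and the list median was 0.20. Casp12 went from 4.93 and 5.56, with a mean under the lower quartile, to 7.18 and 7.02. Bcl2 itself read 10.66 and 11.90 in LN and 12.53 and 12.33 in tumor T cells and did not pass (1.15, adjusted p = 0.218). Of 20 genes of the circadian clock 1 rose (5% against 4.5% over all genes), Nfil3.

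Some genes were read very differently by the 2 LN arrays without IR. Igfbp4, which binds insulin-like growth factors, was 7.68 and 10.88, against 11.24 and 10.97 in tumor T cells, and did not pass (1.83, adjusted p = 0.355). Igfbp4 and Jchain were higher on LN replicate 2, and Mki67 on LN replicate 1.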
